A study of Mus musculus with 9 samples.

Results

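The 10 genes described here belong to transforming growth factor beta (TGF-beta) signalling and were read from the deposited table by their symbols: the ligand genes Tgfb1, Tgfb2, Tgfb3 and Inhba, the latency gene Ltbp1, the receptor genes Tgfbr1, Tgfbr2 and Tgfbr3, the inhibitor gene Smad7 and the target gene Tgfbi. All 10 were found among the 54532 genes of the table. RNA came from flat mounts of choroid and retina of C57BL/6 mice and was sequenced in 9 libraries, 3 from untreated mice, 3 from mice labelled CNV (in this field, choroidal neovascularization, which the sample titles tie to wet age-related macular degeneration) and 3 from mice labelled Betp-Gel@Ran, written BetP-Gel@Ran here. The last group was sampled 3 months after BetP-Gel was injected into the vitreous. The series concerns this gel together with ranibizumab, an antibody fragment against VEGF-A. The labels give no sampling time for the other groups, do not say how CNV was induced, do not say whether the injected mice had CNV, and do not name the animal behind each library. The p-values thus rest on how far libraries varied within the 3 groups, a spread pooled over the groups and moderated over genes. That variation may be technical only. The comparisons address how the TGF-beta genes differed with CNV and after the injection.

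TGF-beta ligands are secreted in an inactive complex with their own propeptide, which latent TGF-beta binding proteins anchor in the matrix until integrins, proteases or thrombospondin release the active dimer. The dimer binds the type II receptor, which recruits and phosphorylates the type I receptor, and this in turn phosphorylates SMAD2 and SMAD3 to act with SMAD4 on target genes. Inhibitory SMADs and other induced feedback genes limit the signal. In the eye the pathway is known for wound healing, for quieting of microglia and for the fibrous scars that can follow neovascular lesions.

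Levels are in FPKM (reads per gene scaled to the gene's length and a library size), which allows levels of different genes to be set side by side. The size behind the deposited values was not the read count. It was 16141701 for 17055610 reads in untreated replicate 3 and 19813498 for 18753737 reads in CNV replicate 1. Group values are mean ± SD (n = 3). Differences are log2 fold changes ± SE on the scale of log2(FPKM + 1), which understates the change of low genes. A gene was called changed at an adjusted p under 0.05 (limma, Benjamini-Hochberg over all 14086 tested genes). Between 16990118 and 18753737 reads were counted per library, and over the 10 genes and 9 libraries a value rested on 16 to 7949 reads. Markers of rods, pigment epithelium and Müller glia were all present, at summed levels of 1288 to 4642, 729 to 1163 and 1279 to 1742 FPKM over the libraries. Markers of cornea and surface epithelium were present as well and higher, at 9795 to 22038 FPKM over 10 genes, although the labels name choroid and retina only. Lens markers summed to 14032 FPKM in untreated replicate 3 and to at most 4578 FPKM in any other library. In these bulk samples, fewer cells of a type and less RNA per cell cannot be told apart.

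RefSeq promoters (build GRCm38.p6, 250 bases before to 50 after a gene's start) were found for 7 of the 10 genes. Those of Tgfb1, Inhba and Tgfbr2, the ligand and receptor genes that rose most in CNV, and of Tgfbi, which fell, are shown 5′ to 3′ on the strand of the gene. Capitals mark matches, on either strand, to the GC box GGGCGG, the SMAD box CAGAC, the TATA box TATAAA and the AP-1 motif TGANTCA. No 2 of these matches overlap in the sequences shown. They lie at chr7:25686752-25687051 (plus strand, Tgfb1), chr13:16011601-16011900 (plus strand, Inhba), chr9:116175314-116175613 (minus strand, Tgfbr2) and chr13:56609336-56609635 (plus strand, Tgfbi).
Tgfb1: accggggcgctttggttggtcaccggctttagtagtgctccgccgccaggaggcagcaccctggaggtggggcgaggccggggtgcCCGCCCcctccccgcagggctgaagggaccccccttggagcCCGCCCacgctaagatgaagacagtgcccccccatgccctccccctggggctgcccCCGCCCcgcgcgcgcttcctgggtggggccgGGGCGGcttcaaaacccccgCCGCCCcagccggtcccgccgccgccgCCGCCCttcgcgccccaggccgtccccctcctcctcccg
Inhba: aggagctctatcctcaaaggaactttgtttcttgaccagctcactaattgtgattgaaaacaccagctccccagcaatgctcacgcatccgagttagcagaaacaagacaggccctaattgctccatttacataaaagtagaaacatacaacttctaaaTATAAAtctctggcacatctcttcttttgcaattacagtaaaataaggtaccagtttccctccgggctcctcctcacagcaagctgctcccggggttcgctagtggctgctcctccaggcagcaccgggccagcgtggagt
Tgfbr2: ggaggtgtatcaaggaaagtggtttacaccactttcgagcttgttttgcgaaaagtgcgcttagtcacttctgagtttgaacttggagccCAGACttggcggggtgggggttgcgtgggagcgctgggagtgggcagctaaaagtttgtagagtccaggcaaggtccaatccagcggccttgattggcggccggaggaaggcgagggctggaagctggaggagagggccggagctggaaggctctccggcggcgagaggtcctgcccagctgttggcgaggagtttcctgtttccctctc
Tgfbi: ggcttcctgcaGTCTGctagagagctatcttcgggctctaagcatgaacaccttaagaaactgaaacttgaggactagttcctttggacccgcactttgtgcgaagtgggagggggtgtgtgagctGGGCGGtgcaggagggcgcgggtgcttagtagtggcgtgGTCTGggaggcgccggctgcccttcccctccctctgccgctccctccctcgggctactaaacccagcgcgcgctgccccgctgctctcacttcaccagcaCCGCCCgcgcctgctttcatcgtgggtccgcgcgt

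The promoter of Tgfb1 held 6 GC boxes, at positions -164 to 12 from the start, no TATA box and 77% G and C. That of Inhba held a single match, a TATA box at position -91, and 47.7% G and C. The Tgfbr2 promoter had 1 SMAD box, at position -160. The Tgfbi promoter had 2 SMAD boxes, at -239 and -85, and 2 GC boxes. Among 32817 promoters of the same length, 35.6% held the GC box, 49.6% the SMAD box, 13.6% the TATA box and 7.81% the AP-1 motif, which none of the 7 genes' promoters held. These are matches of letters only. Of the starts not shown, SMAD boxes were found at the first (1 match) and second (2 matches) start of Ltbp1, at the start of Tgfb2 (2 matches) and at the second start of Tgfbr1 (1 match). The first start of Tgfbr1 held 2 GC boxes and that of Tgfb2 1 TATA box.

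In untreated libraries Tgfbi, which encodes a secreted matrix protein of the cornea induced by TGF-beta, was the most abundant of the 10 genes at 117 ± 7.31 FPKM. Tgfb3 followed at 20.0 ± 1.53 FPKM. The receptor genes lay at 7.66 ± 0.174 (Tgfbr2), 7.54 ± 0.700 (Tgfbr1) and 4.96 ± 0.191 FPKM (Tgfbr3), and the first 2 of these overlapped. Tgfb2, Tgfb1, Smad7 and Ltbp1 followed at 3.63 ± 0.750, 3.17 ± 0.160, 2.29 ± 0.457 and 1.88 ± 0.202 FPKM, with overlap between Tgfb2 and Tgfb1 and between Smad7 and Ltbp1. Inhba was lowest, at 0.170 ± 0.0315 FPKM. Its 3 untreated values rested on 16 to 21 reads.

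**Figure D1:**
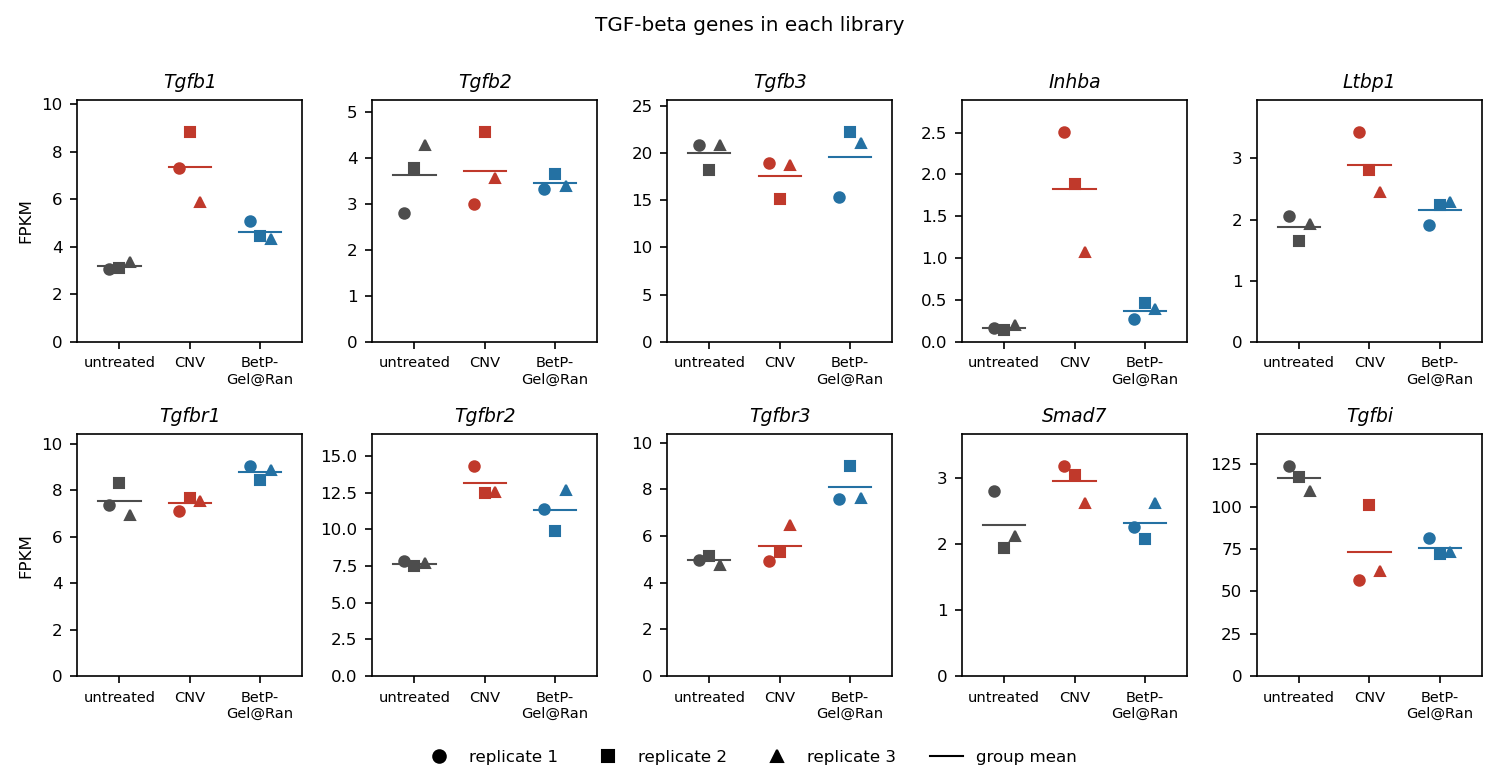
FPKM of each of the 10 TGF-beta genes (vertical axes, each from 0) in the 9 libraries, by group; symbols mark replicates and lines the group means. All 3 CNV libraries lie above all untreated ones for Tgfb1, Inhba, Ltbp1 and Tgfbr2 and below them for Tgfbi, and all 3 BetP-Gel@Ran libraries lie above the others for Tgfbr3.

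In CNV libraries Tgfb1, Inhba, Ltbp1 and Tgfbr2 were higher and Tgfbi was lower than in untreated ones, while Tgfb2, Tgfb3, Tgfbr1, Tgfbr3 and Smad7 were not called. Of the 10 genes, 5 were thus called, against 44.6% of all tested genes, with 4 higher (22.5% of all tested genes) and 1 lower (22.1%). The count of 5 is near the background share, so it says little about the 10 genes as a set. Their median log2 fold change was 0.20, beside 0.01 over all tested genes. All 5 calls were also made with each of the 9 libraries left out in turn, among the genes that passed the filter with all 9. The count includes Inhba, which passed the filter on low values only through the 3 CNV libraries. Without any of these it would not have passed, so its fits without a CNV library rest on a filter that used that library.

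Tgfb1 encodes the ligand most tied to wound healing and leukocytes (ENSMUSG00000002603, mm10 chromosome 7, 25687002 to 25705077, plus strand). It was at 3.05, 3.12 and 3.35 FPKM in the untreated, at 7.33, 8.85 and 5.87 in the CNV and at 5.07, 4.45 and 4.34 in the BetP-Gel@Ran libraries. The 3 groups did not overlap, with CNV highest and untreated lowest. The mean level in CNV was 2.32-fold that in untreated libraries (log2 0.99 ± 0.12, limma adjusted p = 2.48e-04).

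Inhba encodes the beta-A chain of activin A, a ligand that signals through SMAD2 and SMAD3 like TGF-beta but over activin receptors (ENSMUSG00000041324, chromosome 13, 16011851 to 16031621, plus strand). It was at 0.166, 0.141 and 0.204 FPKM in untreated libraries, at 2.51, 1.89 and 1.07 in CNV and at 0.268, 0.459 and 0.387 in BetP-Gel@Ran ones. The rise in CNV was 10.7-fold in mean FPKM (log2 1.24 ± 0.18, limma adjusted p = 5.38e-04). Only the CNV libraries reached 1 FPKM, so Inhba entered the test through the group in which it was high. Inha, the gene of the alpha chain that turns activin chains into inhibins, fell from 2.16 ± 0.274 to 1.02 ± 0.247 FPKM (log2 -0.65 ± 0.14, limma adjusted p = 0.00415). Outside the untreated libraries only CNV replicates 1 and 3 reached 1 FPKM, at 1.27 and 1.02. Inha thus passed the filter through the untreated libraries, in which it was high, and its CNV values rested on 20 to 37 reads.

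Tgfb2 and Tgfb3 encode the other TGF-beta isoforms, known in eye development and, for Tgfb2, in the aqueous humour and retina. Tgfb2 (chromosome 1, 186622792 to 186705989, minus strand) was at 2.81, 3.79 and 4.28 FPKM in the untreated, 2.99, 4.58 and 3.56 in the CNV and 3.33, 3.64 and 3.39 in the BetP-Gel@Ran libraries. Its groups overlapped throughout, with log2 0.03 ± 0.14 in CNV against untreated (limma adjusted p = 0.902). Tgfb3 (chromosome 12, 86056745 to 86079041, minus strand) was at 20.8, 18.2 and 20.9 FPKM in the untreated, 18.9, 15.2 and 18.8 in the CNV and 15.3, 22.3 and 21.02 in the BetP-Gel@Ran libraries, again with overlap (log2 -0.18 ± 0.14, limma adjusted p = 0.333). Tgfb3 was the most abundant isoform gene in each of the 9 libraries. The library kit does not mark strand, and genes on the opposite strand share 7.60% and 4.82% of the exon bases of Tgfb3 and 2.14% of those of Tgfb2, at mean levels of at most 0.0841 FPKM.

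Tgfb1 took a larger share of the summed isoform level in CNV, while the sums overlapped between the groups. Tgfb1, Tgfb2 and Tgfb3 summed to 26.8 ± 1.70 FPKM in the untreated, 28.7 ± 0.521 in the CNV and 27.6 ± 3.46 in the BetP-Gel@Ran libraries. Tgfb1 made up 11.4%, 12.4% and 11.8% of this sum in the untreated, 25.1%, 31.0% and 20.8% in the CNV and 21.4%, 14.7% and 15.1% in the BetP-Gel@Ran libraries. Every CNV share was above every untreated one, and the BetP-Gel@Ran shares lay above the untreated ones and overlapped those of CNV. No test was made on these shares, since an exact permutation test of 3 against 3 libraries cannot go below p = 0.10. Tgfb3 held 72.5% to 78.0% of the sum in untreated and 53.0% to 66.5% in CNV libraries.

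**Figure D2:**
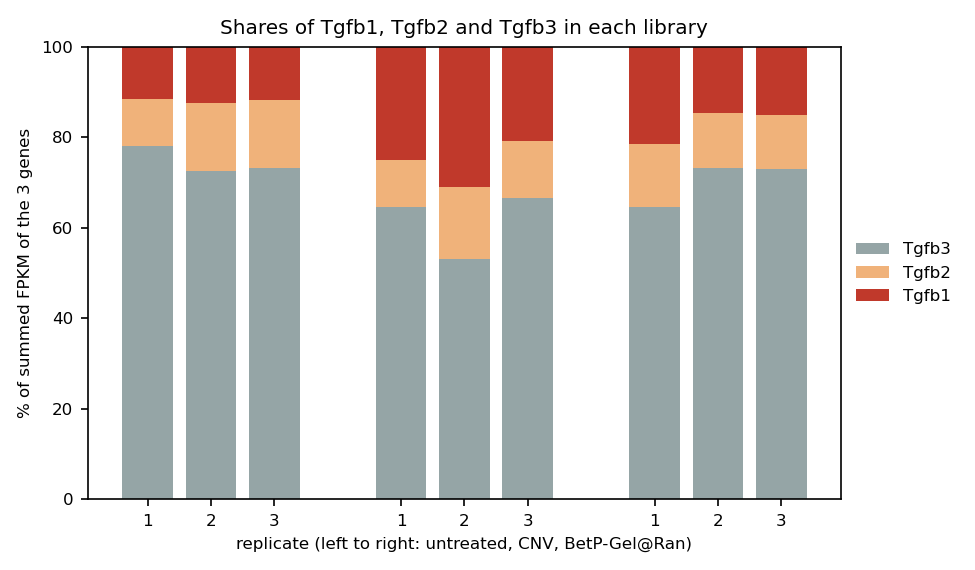
Share of Tgfb1, Tgfb2 and Tgfb3 in their summed FPKM (vertical axis, percent) in each of the 9 libraries (bars, by replicate within each group). The Tgfb1 share is 11.4% to 12.4% in the untreated, 20.8% to 31.0% in the CNV and 14.7% to 21.4% in the BetP-Gel@Ran libraries.

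Ltbp1 encodes a latent TGF-beta binding protein that holds the inactive ligand in the matrix (ENSMUSG00000001870, chromosome 17, 75005568 to 75392512, plus strand). It was at 2.05, 1.65 and 1.92 FPKM in the untreated, 3.44, 2.82 and 2.45 in the CNV and 1.92, 2.24 and 2.29 in the BetP-Gel@Ran libraries. All CNV values were above all others, and the rise against untreated was 0.43 ± 0.11 on the log2 scale (limma adjusted p = 0.00997).

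Tgfbr2 encodes the type II receptor that binds the ligand (ENSMUSG00000032440, chromosome 9, 116084293 to 116175360, minus strand). It was at 7.81, 7.47 and 7.71 FPKM in the untreated, 14.3, 12.5 and 12.5 in the CNV and 11.4, 9.88 and 12.7 in the BetP-Gel@Ran libraries. Untreated libraries were below all others, and the other groups overlapped. The rise in CNV was 0.70 ± 0.09 (limma adjusted p = 3.54e-04), to 13.1 ± 1.04 FPKM. Tgfbr1, the gene of the signalling type I receptor (chromosome 4, 47353222 to 47414931, plus strand), was at 7.37, 8.31 and 6.94 FPKM in untreated and 7.10, 7.69 and 7.53 in CNV libraries, which overlapped (log2 -0.01 ± 0.08, limma adjusted p = 0.899). Mean levels of the type II and type I receptor genes were thus 7.66 and 7.54 FPKM in untreated and 13.1 and 7.44 FPKM in CNV libraries. Tgfbr3, the gene of betaglycan, a coreceptor that presents ligand, above all TGF-beta 2 (chromosome 5, 107106570 to 107289629, minus strand), was at 4.996, 5.13 and 4.75 FPKM in untreated and 4.95, 5.32 and 6.49 in CNV libraries (log2 0.14 ± 0.10, limma adjusted p = 0.291).

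Smad7 encodes an inhibitory SMAD that is induced by the pathway and blocks the type I receptor (ENSMUSG00000025880, chromosome 18, 75367529 to 75395935, plus strand). It was at 2.80, 1.93 and 2.12 FPKM in the untreated, 3.18, 3.04 and 2.62 in the CNV and 2.26, 2.07 and 2.62 in the BetP-Gel@Ran libraries. Untreated replicate 1 lay within the range of the CNV libraries, and the difference was not called (log2 0.27 ± 0.12, limma adjusted p = 0.0826). It was called without untreated replicate 1 (0.38, limma adjusted p = 0.0246), and also after scaling reads to library totals, a setting chosen after seeing the data (0.34, limma adjusted p = 0.0321).

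Tgfbi went the other way (ENSMUSG00000035493, chromosome 13, 56609523 to 56639562, plus strand). It was at 124, 118 and 110 FPKM in the untreated, 56.7, 101 and 62.3 in the CNV and 81.6, 72.2 and 73.5 in the BetP-Gel@Ran libraries. Untreated libraries were above all others, and CNV replicate 2 stood apart from the other CNV libraries. The fall in CNV was -0.71 ± 0.18 on the log2 scale (limma adjusted p = 0.0116), and -0.97 without CNV replicate 2.

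**Figure D3:**
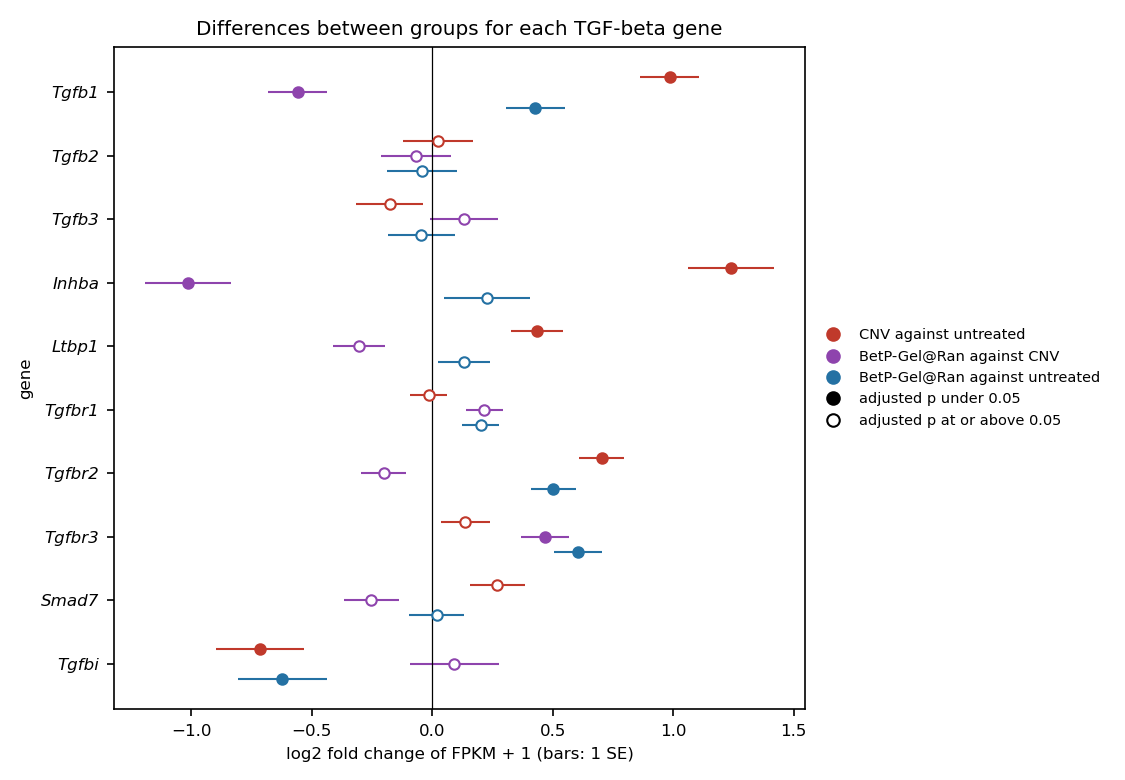
Log2 fold change of FPKM + 1 (horizontal axis, bars 1 SE) of the 10 TGF-beta genes in the 3 comparisons; filled points have a limma adjusted p under 0.05. CNV against untreated is 0.99 for Tgfb1, 1.24 for Inhba, 0.70 for Tgfbr2 and -0.71 for Tgfbi, and Tgfb2 lies between -0.07 and 0.03 in all 3.

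Markers of several cell types moved with these genes. Of all tested genes, 22.5% were called higher and 22.1% lower in CNV, shares to set beside the counts that follow. All 14 macrophage and microglia markers were called higher in CNV, and their summed level was 440 to 468 FPKM in the untreated, 1530 to 2239 in the CNV and 848 to 1096 in the BetP-Gel@Ran libraries, none of them at 0 in any library. It stood in the same order of groups as Tgfb1. The sum of 9 neutrophil markers was 36.0 to 57.9, 476 to 1011 and 29.9 to 161 FPKM, in the order of groups of Inhba except that its BetP-Gel@Ran values overlapped the untreated ones. Of those 9, all 7 that were tested were called higher in CNV, and Ngp was at 0 in a BetP-Gel@Ran library. Of 9 fibroblast and keratocyte markers 7 were called lower and none higher in CNV, with sums of 1069 to 1222, 485 to 639 and 692 to 855 FPKM. This list shares Dcn, Col1a1 and Col1a2 with the pathway genes below, and Dcn alone was at 525 ± 50.2 FPKM in untreated libraries. Of 10 markers of cornea and surface epithelium 7 were lower and 1 was higher in CNV, with sums of 18937 to 22038, 9795 to 11170 and 14057 to 16804 FPKM. In both of these lists untreated libraries were highest, as for Tgfbi, although CNV and BetP-Gel@Ran libraries did not overlap as they did for Tgfbi. All 8 skeletal muscle markers were called lower in CNV, with sums of 5011 to 5620, 858 to 1483 and 1252 to 1474 FPKM in the same order, so that untreated libraries were highest and the other groups overlapped, as for Tgfbi. All 9 rod markers were called lower as well, with sums of 3518 to 4642, 1288 to 1593 and 1646 to 2295 FPKM. Sums of 8 Müller glia markers, at 1668 to 1742, 1279 to 1430 and 1351 to 1434 FPKM, had the pattern of Tgfbi too. Of these markers 3 were called higher and 2 lower in CNV. The part of these cell types in the values of Tgfb1, Inhba, Tgfbr2 and Tgfbi was not tested. Endothelial markers, at 10.9 to 17.1 FPKM summed over 8 genes, were called lower in 1 and higher in none of 7 tested in CNV (22.1% and 22.5% of all tested genes).

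**Figure D4:**
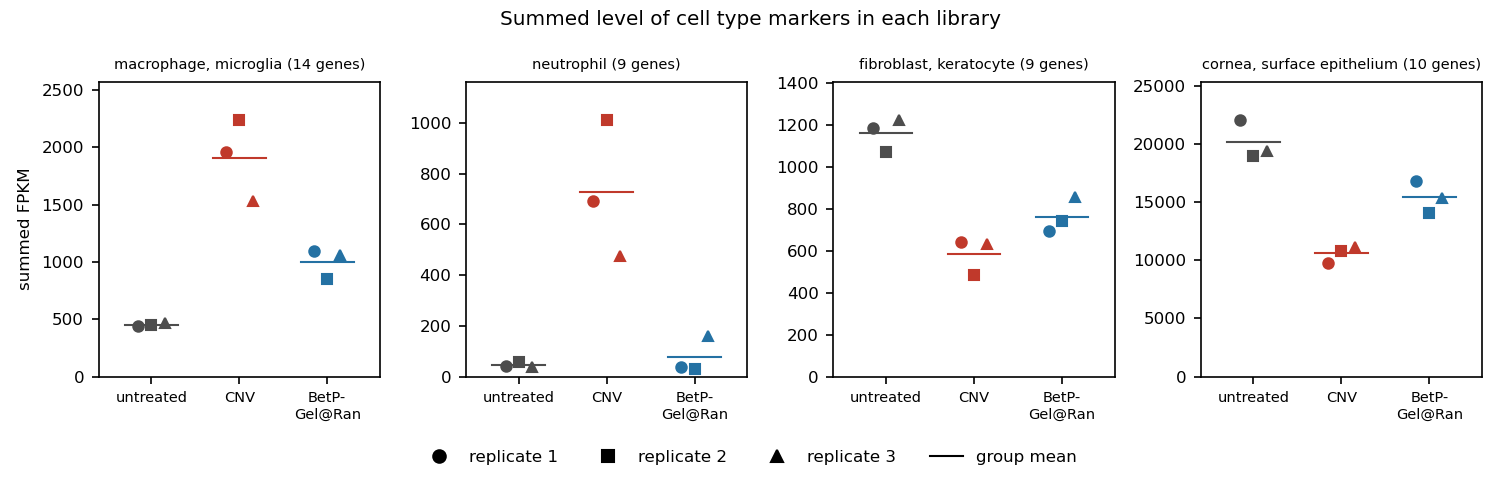
Summed FPKM of 4 lists of cell type markers (vertical axes, each from 0) in the 9 libraries, by group; symbols mark replicates and lines the group means. Macrophage and microglia markers reach 1530 to 2239 FPKM in CNV against 440 to 468 in untreated libraries, and fibroblast and keratocyte markers lie at 485 to 639 FPKM against 1069 to 1222.

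In BetP-Gel@Ran libraries Tgfb1 and Inhba were lower and Tgfbr3 was higher than in CNV ones. These were 3 of the 10 genes, Inhba with its entry through the CNV libraries among them, against 14.1% of all tested genes, with 1 higher (5.81% of all tested genes) and 2 lower (8.27%). The median log2 fold change of the 10 was -0.13, beside 0.00 over all tested genes. This comparison shares its CNV libraries with the one above, so opposite signs in the 2 comparisons are not independent of each other.

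Inhba fell to 0.371 ± 0.0967 FPKM (log2 -1.01 ± 0.18, limma adjusted p = 0.0111). That call was made with each library left out, but only because the filter still used all libraries. Since only the CNV libraries brought Inhba into the test, a difference from them was built into its selection. Tgfb1 fell from 7.35 ± 1.49 to 4.62 ± 0.393 FPKM (log2 -0.56 ± 0.12, limma adjusted p = 0.0221). Tgfbr3 rose to 8.09 ± 0.803 from 5.59 ± 0.803 FPKM (log2 0.47 ± 0.10, limma adjusted p = 0.0209), at 7.61, 9.01 and 7.64 FPKM in the 3 BetP-Gel@Ran libraries, all above every other library. The calls of Tgfb1 and Tgfbr3 were not made without CNV replicate 1, CNV replicate 2, BetP-Gel@Ran replicate 2 or BetP-Gel@Ran replicate 3, with adjusted p from 0.0505 to 0.0746 and log2 fold changes of at least 0.40 in size. Tgfb1 also missed the threshold without a filter and in a fit of only these 2 groups, with adjusted p up to 0.0538.

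Ltbp1 was below every CNV value in each BetP-Gel@Ran library, without a call (log2 -0.30 ± 0.11, limma adjusted p = 0.0901), as was Smad7 (log2 -0.25 ± 0.12, limma adjusted p = 0.166), there by as little as 2.617 against 2.621 FPKM. Tgfbr1 was above every CNV value, at 9.06, 8.46 and 8.88 FPKM, also without a call (log2 0.22 ± 0.08, limma adjusted p = 0.0871). Tgfbr2 (log2 -0.20 ± 0.09), Tgfbi (log2 0.09 ± 0.18), Tgfb2 (log2 -0.07 ± 0.14) and Tgfb3 (log2 0.13 ± 0.14) overlapped between the groups, with limma adjusted p of 0.171, 0.765, 0.779 and 0.548. Of the macrophage and microglia markers 10 of 14 were lower in this comparison, and all 7 tested neutrophil markers were lower (8.27% of all tested genes). Of 10 cornea and surface epithelium markers 7 were higher and 1 was lower (5.81% and 8.27% of all tested genes). Of 10 tested lens markers 3 were higher and none was lower (5.81% and 8.27% of all tested genes). Their sums were 20.7 to 121 FPKM in CNV and 1217 to 4578 FPKM in BetP-Gel@Ran libraries. The part of these cells in the lower Tgfb1 and Inhba and the higher Tgfbr3 was not tested.

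Against untreated libraries, BetP-Gel@Ran libraries were higher in Tgfb1, Tgfbr2 and Tgfbr3 and lower in Tgfbi. Of the 10 genes 4 were called, against 34.2% of all tested genes, with 3 higher (16.1% of all tested genes) and 1 lower (18.1%). The median log2 fold change of the 10 was 0.17, beside -0.01 over all tested genes. Tgfbr3, at 1.63-fold the untreated mean (log2 0.61 ± 0.10, limma adjusted p = 0.00222), and Tgfbr2, at 1.48-fold (log2 0.50 ± 0.09, limma adjusted p = 0.00365), were called with each library left out. Tgfb1 differed by 0.43 ± 0.12 (limma adjusted p = 0.0237), which was not called without untreated replicate 1 or 2 or BetP-Gel@Ran replicate 1, with adjusted p up to 0.0753. Tgfbi differed by -0.62 ± 0.18 (limma adjusted p = 0.0280), which was not called without untreated replicate 1 or 2 or BetP-Gel@Ran replicate 2 or 3 (adjusted p up to 0.0837) or after quantile normalization (0.0773). Neither Tgfb1 nor Tgfbi was called here without a filter on low values. Inhba lay above untreated in all 3 libraries, at 30 to 53 reads against 16 to 21, but was not called (log2 0.23 ± 0.18, limma adjusted p = 0.349), and its level was under 0.5 FPKM. Ltbp1 (0.377), Smad7 (0.915), Tgfb2 (0.845), Tgfb3 (0.831) and Tgfbr1 (0.0688) were not called either, with the limma adjusted p in brackets. All 14 macrophage and microglia markers were higher in this comparison, and 5 of 9 fibroblast and keratocyte markers were lower and none higher (18.1% and 16.1% of all tested genes). All 9 rod markers (median log2 -0.99) and all 8 skeletal muscle markers (median log2 -1.96) were lower too. Of 10 cornea and surface epithelium markers 2 were lower and 1 higher. This is near the 18.1% and 16.1% of all tested genes, so the count says little about those cells. The part of these cell types in the values of Tgfb1, Tgfbr2, Tgfbr3 and Tgfbi was not tested.

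The rest of the pathway was read from 96 further genes in 6 lists by role, of which 80 were tested. In CNV against untreated 35 were higher and 10 lower (45 called, beside 44.6% of all tested genes), with a median of 0.24 on the log2 scale. In BetP-Gel@Ran against CNV 3 were higher and 19 lower (22 called, beside 14.1% of all tested genes), with a median of -0.19, and with single libraries left out 7 to 30 were called. In BetP-Gel@Ran against untreated 23 were higher and 9 lower (32 called, beside 34.2% of all tested genes), with a median of 0.10.

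Genes that hold or release latent TGF-beta were higher in CNV in 8 of 11 tested and lower in none (22.5% and 22.1% of all tested genes). Thbs1, whose product thrombospondin-1 can activate latent TGF-beta, was at 7.49, 7.55 and 7.55 FPKM in the untreated, 49.1, 67.4 and 34.0 in the CNV and 7.22, 13.1 and 13.8 in the BetP-Gel@Ran libraries. It was called higher in CNV (log2 2.53 ± 0.27, limma adjusted p = 1.35e-04) and lower in BetP-Gel@Ran than in CNV libraries (log2 -2.04 ± 0.27, limma adjusted p = 0.00498). Nrros, which encodes a protein that tethers latent TGF-beta 1 on microglia and macrophages, rose from 0.987 ± 0.0456 to 3.59 ± 0.404 FPKM in CNV (log2 1.20 ± 0.09, limma adjusted p = 2.22e-05). In BetP-Gel@Ran against CNV libraries 4 of the 11 were lower and none was higher (8.27% and 5.81% of all tested genes). The sum of 5 platelet markers, which moved with Thbs1, was 27.9 to 28.6 FPKM in the untreated, 780 to 1990 in the CNV and 41.8 to 62.6 in the BetP-Gel@Ran libraries, and its part in Thbs1 was not tested. Of the 3 platelet markers tested, Ppbp and Pf4 were called higher in CNV and Itga2b was not. Ppbp made up most of the CNV sums, at 706 to 1809 FPKM.

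Of 8 tested activin, BMP and related ligand genes 2 rose and 2 fell in CNV (22.5% and 22.1% of all tested genes). Gdf15, a stress-induced ligand gene, rose to 2.30 ± 0.282 from 0.355 ± 0.145 FPKM (log2 1.28 ± 0.12, limma adjusted p = 5.61e-05) and was at 0.789 ± 0.157 FPKM in BetP-Gel@Ran libraries, lower than in CNV (log2 -0.88 ± 0.12, limma adjusted p = 0.00498). Gdf15 reached 1 FPKM in the CNV libraries only and so, like Inhba, entered the test through the group in which it was high. Inha, among the falls, passed through the untreated libraries. Gdf11, a ligand gene of activin receptors, rose from 1.66 ± 0.0642 to 3.41 ± 0.472 FPKM in CNV (log2 0.73 ± 0.09, limma adjusted p = 2.44e-04). Bmp6 fell by 0.24 on the log2 scale in CNV (limma adjusted p = 0.0444), a call that was lost with 8 of the 9 libraries left out in turn.

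Of 8 tested receptor genes other than the members 1 rose and none fell in CNV (22.5% and 22.1% of all tested genes). It was Bmpr2 of the BMP type II receptor (log2 0.29 ± 0.08, limma adjusted p = 0.0154). Its call was lost without CNV replicate 2 (adjusted p = 0.0513). Acvr1b, the gene of the activin type I receptor, was called higher in BetP-Gel@Ran than in CNV libraries (11.7 ± 0.408 against 8.43 ± 1.43 FPKM, log2 0.44 ± 0.11, limma adjusted p = 0.0321). That call was lost without CNV replicate 2 or any single BetP-Gel@Ran library (adjusted p up to 0.0998). Of 10 SMAD and cofactor genes 5 rose and none fell in CNV (22.5% and 22.1% of all tested genes), with Smad4, the gene of the shared SMAD, at 15.7 ± 0.770 and 20.7 ± 0.623 FPKM (log2 0.37 ± 0.07, limma adjusted p = 0.00156). Tab2, an adaptor gene of the TAK1 kinase, rose by 0.36 ± 0.09 (limma adjusted p = 0.00925). Smad2 and Smad3, which carry the TGF-beta and activin signal and were added outside the naming rule, were at 10.5 ± 0.762 and 4.41 ± 0.510 FPKM in untreated and 9.99 ± 0.791 and 5.11 ± 0.397 FPKM in CNV libraries and were not called.

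Of 16 tested inhibitor genes 8 rose and 3 fell in CNV (22.5% and 22.1% of all tested genes). Grem1, a secreted antagonist of BMPs, was at 0.568, 0.570 and 1.00 FPKM in the untreated, 8.66, 22.4 and 12.6 in the CNV and 1.69, 2.28 and 3.05 in the BetP-Gel@Ran libraries, and its groups did not overlap. It rose by 3.10 ± 0.29 in CNV (limma adjusted p = 7.60e-05) and was lower by -2.14 ± 0.29 in BetP-Gel@Ran than in CNV libraries (limma adjusted p = 0.00566). Nog, another BMP antagonist gene, rose to 2.79 ± 0.274 from 0.897 ± 0.221 FPKM (log2 1.00 ± 0.11, limma adjusted p = 1.24e-04). Pmepa1 and Skil, feedback inhibitor genes induced by TGF-beta, were singled out after their values were seen. Pmepa1 was at 5.94 ± 0.313, 12.1 ± 2.71 and 5.92 ± 0.629 FPKM and Skil at 2.61 ± 0.279, 5.80 ± 1.05 and 3.74 ± 0.176 FPKM in untreated, CNV and BetP-Gel@Ran libraries. Both were called higher in CNV (log2 0.89 and 0.90, limma adjusted p = 0.00108 and 3.06e-04) and lower in BetP-Gel@Ran than in CNV libraries (log2 -0.90 and -0.51, limma adjusted p = 0.00903 and 0.0248), although the second Skil call was lost without CNV replicate 1 or 2 or any single BetP-Gel@Ran library (adjusted p up to 0.0915). The inhibitor genes that fell in CNV included the proteoglycan genes Dcn and Bgn, whose products bind TGF-beta in the matrix. Dcn went from 525 ± 50.2 to 268 ± 53.6 FPKM (log2 -0.98 ± 0.17, limma adjusted p = 0.00143) and Bgn from 90.9 ± 17.6 to 49.1 ± 1.09 FPKM (log2 -0.86 ± 0.13, limma adjusted p = 7.47e-04). Dcn was called higher in BetP-Gel@Ran than in CNV libraries (410 ± 70.5 FPKM, log2 0.62 ± 0.17, limma adjusted p = 0.0417), but only 2 of the 9 fits that leave out a library made that call, those without CNV replicate 3 or BetP-Gel@Ran replicate 1. Dcn is also 1 of the 9 fibroblast and keratocyte markers.

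**Figure D5:**
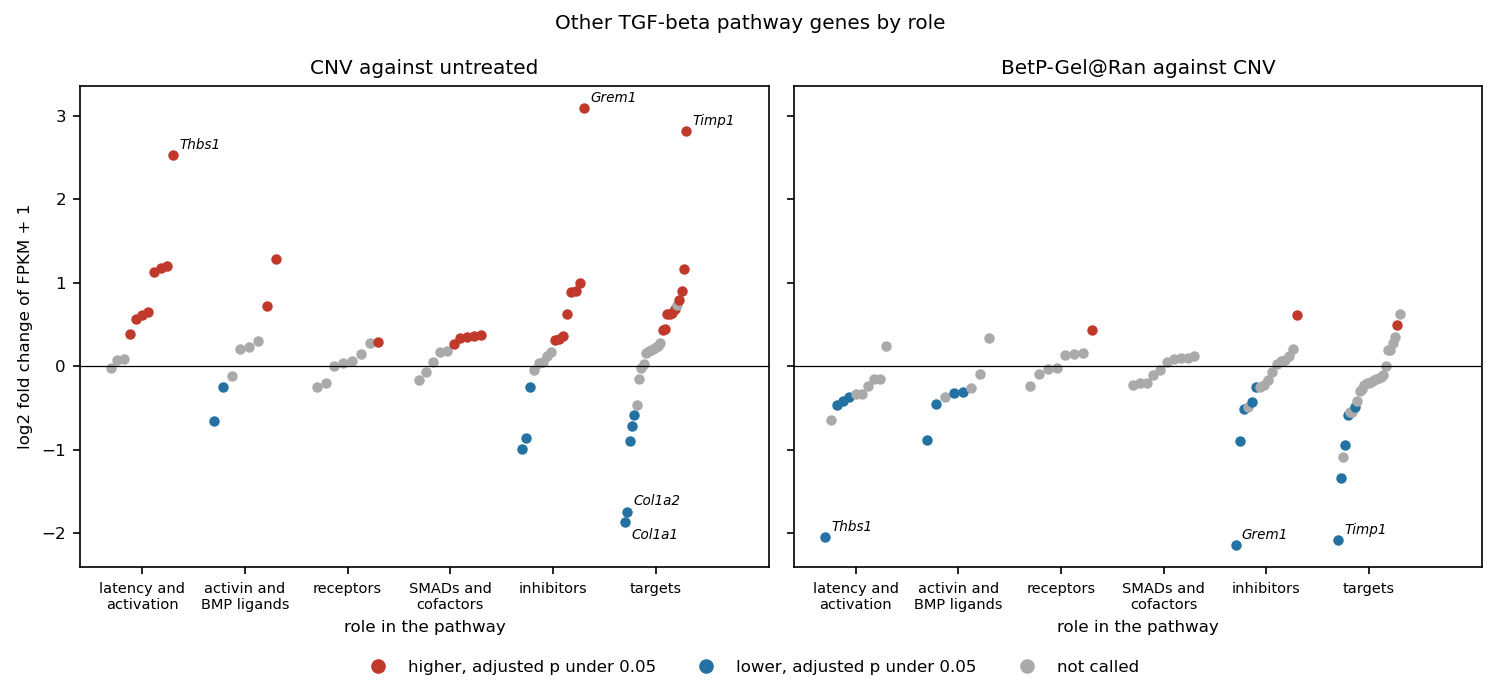
Log2 fold change of FPKM + 1 (vertical axis) of the tested TGF-beta pathway genes other than the 10 members, ordered by value within each of 6 roles, in CNV against untreated (left) and BetP-Gel@Ran against CNV (right); colours mark limma adjusted p under 0.05. Thbs1, Grem1 and Timp1 lie at 2.53 to 3.10 on the left and at -2.14 to -2.04 on the right, a pair of comparisons that shares the CNV libraries.

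Target genes of the pathway moved in both directions in CNV, with 11 of 28 tested called higher and 5 lower (22.5% and 22.1% of all tested genes), at a median of 0.24. Timp1, a metalloproteinase inhibitor gene, rose to 52.1 ± 20.2 from 6.15 ± 0.777 FPKM (log2 2.82 ± 0.29, limma adjusted p = 1.29e-04) and was lower, at 11.1 ± 2.94 FPKM, in BetP-Gel@Ran libraries (log2 -2.08 ± 0.29 against CNV, limma adjusted p = 0.00673). The fibrillar collagen genes Col1a1 and Col1a2 fell in CNV, from 123 ± 9.92 to 34.3 ± 12.7 and from 93.5 ± 6.75 to 27.7 ± 6.63 FPKM (log2 -1.86 ± 0.21 and -1.74 ± 0.16, limma adjusted p = 1.79e-04 and 4.47e-05). They were at 40.6 ± 6.31 and 35.4 ± 4.28 FPKM in BetP-Gel@Ran libraries. Ctgf, the connective tissue growth factor gene and another target, named after its value was seen, was at 59.7 ± 8.54, 32.2 ± 7.83 and 21.7 ± 5.67 FPKM in untreated, CNV and BetP-Gel@Ran libraries. It was called lower in CNV (log2 -0.89 ± 0.22, limma adjusted p = 0.0100) and not called in BetP-Gel@Ran against CNV (log2 -0.55 ± 0.22, limma adjusted p = 0.123). Id2, a target gene of BMP and TGF-beta signals, was at 92.2 ± 10.7, 62.0 ± 13.0 and 86.6 ± 5.31 FPKM in the same order. It was called lower in CNV than in untreated libraries (log2 -0.58, limma adjusted p = 0.00886), also with each library left out. It was called higher in BetP-Gel@Ran than in CNV libraries (log2 0.49 ± 0.14, limma adjusted p = 0.0470). Only 1 of the 9 fits without a library made that second call. Col1a1 and Col1a2 are, like Dcn, on the fibroblast and keratocyte list, and the part of those cells in these falls was not tested.

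Calls among all genes depended on scaling in their direction. Of genes called in CNV against untreated, 50.4% were higher, and 62.3% after scaling reads to library totals. Of those called in BetP-Gel@Ran against untreated, 47.1% were higher, 63.6% with FPKM divided by its sum and 58.8% after scaling reads to library totals. In BetP-Gel@Ran against CNV the share moved the other way with library totals, from 41.25% to 33.51%. It was 41.42% there with FPKM divided by its sum and 48.36% after quantile normalization. The median log2 fold change of all tested genes in CNV against untreated moved from 0.01 to 0.08 after scaling reads to library totals. The 5 calls of TGF-beta genes in CNV were made with the same sign under all 3 other scalings tried.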

How the data were processed

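RNA of 9 libraries was measured by sequencing. FPKM per gene was deposited by the authors in 1 table for all libraries; per the submitters' processing notes, HTSeq 0.6.0 and mm10 were used, with no aligner given in these sources. Each column was matched to its sample by title. FPKM multiplied by gene length gave whole reads within 0.05 for 100% of values, 16990118 to 18753737 reads per library, so depth differed little. Testing covered the 14086 genes that reached 1 FPKM in 3 or more of the 9 libraries, on log2(FPKM + 1) with limma 3.58.1 in R 4.3.3 (trend, robust, all 9 libraries, Benjamini-Hochberg). The spread is shared over the groups. The procedure was also run on simulated data, in which far fewer genes changed than were called here. Its error rate there need not hold for these data.

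The members and all lists were chosen with earlier results of these data known, and no test over a list was made. Named were the 10 members, in each list of pathway genes the 2 largest called rises and falls in CNV and the largest rise and fall in BetP-Gel@Ran against CNV, and for each member called at least once the 3 genes most like it. The rule also names 1 target gene that is counted in its list but is not reported here or plotted. Alternatives were another pseudocount (0.1), no filter, quantile normalization, a filter of 5 FPKM, FPKM divided by its sum, a fit of 2 groups, plain moderation, a replicate block, limma voom on the recovered reads and leaving out each library. Fits that left out a library kept the genes chosen by the filter on all 9 libraries. Reads scaled to each library's total were added after seeing the data.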

Additional observations from a re-analysis of the deposited data

How the results depend on the processing

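No call of a named gene was reversed in any alternative. Small fold changes that were not called did change sign in some: among the 10 genes those of Tgfb2 in each comparison (-0.11 to 0.14 in CNV against untreated with a library left out), Tgfbr1 in CNV against untreated, Tgfbi in BetP-Gel@Ran against CNV (-0.07 to 0.34) and Tgfb3 and Smad7 in BetP-Gel@Ran against untreated, and among the others those of Smad2, Smad3, Bmpr2, Id2 and Pmepa1. Of 558 alternative values of the 10 genes, 530 kept their side of the threshold, 20 lost a call and 8 gained one. The filter of 5 FPKM leaves fewer genes to test. In CNV against untreated it called 3 of 6 tested members, 29 of 47 other pathway genes and 3846 of 7863 genes in all. In BetP-Gel@Ran against CNV, 10 of 96 tested other pathway genes were called without a filter and 13 of 47 with the filter of 5 FPKM. Of the 80 tested in the main fit, 14 were called with FPKM divided by its sum and 10 in the fit of 2 groups. All genes called were 853 of 29374 without a filter and 1189 of 14086 in the fit of 2 groups. With each library left out in turn, that comparison called 1 to 4 members, 7 to 30 other pathway genes and 446 to 3215 genes. All genes called were 446 without CNV replicate 1, 464 without CNV replicate 2, 466 without BetP-Gel@Ran replicate 2, 650 without BetP-Gel@Ran replicate 3, 1195 without BetP-Gel@Ran replicate 1 and 3215 without CNV replicate 3, against 1983 with all libraries. In BetP-Gel@Ran against untreated, 2 of 10 members were called without a filter and 19 of 47 tested other pathway genes with the filter of 5 FPKM. With a library left out, 2 to 4 members and 3198 to 5129 genes were called there. The cause was not tested.

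The replicate numbers did not pair the samples: deviations of libraries with the same number correlated at -0.148 to 0.0841. With the replicate block, 5, 3 and 4 members, 44, 15 and 28 other pathway genes and 6048, 1398 and 4467 genes were called in CNV against untreated, BetP-Gel@Ran against CNV and BetP-Gel@Ran against untreated. Among the 10 genes depth limits Inhba most, with 16 to 53 reads outside the CNV libraries. Gdf15 rested on 7 to 32 reads there, and Inha on 14 to 25 in BetP-Gel@Ran libraries.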

Other observations

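For each of the 6 TGF-beta genes called in a comparison, the genes with the most similar FPKM over the 9 libraries were listed among 12682 compared. The libraries form 3 groups, so a gene that differs between the groups in the same way is similar for that reason, and the values are descriptions. Pearson's r with Tgfb1 was 0.995 for Apobec3, a gene of antiviral defence, 0.992 for Itga5, the fibronectin receptor alpha chain, and 0.992 for Aim2, a sensor of cytosolic DNA. With Inhba it was 0.990 for Plod2, a collagen-modifying enzyme gene, 0.989 for Atp13a3 and 0.987 for Rab31. Ltbp1 was closest to Naf1 (0.959), then to Inhba (0.949), another of the 10 genes, and Tigit (0.949).

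Among the receptors, Tgfbr2 was closest to Dlg5 (0.992), Rassf2 (0.986) and Fgl2 (0.984), and Tgfbr3 to Map3k5 (0.982), Tut4 (0.976) and Aftph (0.974). Tgfbi was closest to Abr (0.969), Epn1 (0.962) and Prickle3 (0.953).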
